A study of Homo sapiens with 6 samples.

Results

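The FOXO transcription factors and a set of genes that they activate were followed in DU145 cells treated with taraxasterol (TAX). The 10 genes were chosen by symbol, with earlier results of these data known, out of the 23062 identifiers listed in each library. They are FOXO1, FOXO3 and FOXO4 and the targets CCNG2, BTG1, KLHL24, TXNIP, CITED2, PIK3IP1 and SESN3. DU145 is an established human prostate cancer line derived from a metastasis in the brain. Bulk RNA was sequenced in 3 control libraries, from cells left in MEM medium, and in 3 libraries from cells given TAX, a plant triterpene, at its IC50, all at 48 h. Genotype is given as WT for all 6 libraries. TAX was dissolved in DMSO, and the sources used here do not say whether the control cells received DMSO, so that the effects of TAX and of the solvent cannot be told apart. Nor do they say whether the replicates came from separate cultures, so that p-values measure the spread between these samples, which may be technical.

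FOXO proteins are forkhead transcription factors that act downstream of insulin and growth factor receptors. When PI3K is active, AKT and the related SGK kinases phosphorylate FOXO proteins, adaptor proteins of the YWHA family bind them, and they are kept out of the nucleus. When AKT activity falls, FOXO proteins enter the nucleus and activate genes that slow the cell cycle, restrain PI3K and mTOR and adapt metabolism. Most of this control acts on the protein, so that the mRNA of the FOXO genes themselves need not move with FOXO activity, and the mRNA of their targets is the nearer readout. The study asks whether TAX slows prostate cancer cells and which pathways and genes go with it, and the comparison of these targets between TAX-treated and control cells addresses a readout downstream of AKT.

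FOXO proteins bind the core GTAAACA and, in insulin response elements, the variant CAAAACA. Both strands of the RefSeq promoter windows (GRCh38.p14, from 250 bases before to 50 bases after a start site) were searched for these letters. All 10 genes matched a symbol there, and in the first window listed for each gene a match was found for 4 of them. In BTG1 the core lies on the minus strand from -209 to -203 and in TXNIP on the plus strand from -124 to -118, counted from the start site. KLHL24 holds CAAAACA on the minus strand from -32 to -26, and FOXO4 holds GTAAACA behind its start site, from 24 to 30. All positions count from the RefSeq start site. GENCODE 29 starts KLHL24 further upstream and FOXO4 further downstream. Against that annotation the KLHL24 match lies inside the gene and the FOXO4 match before it. No match overlapped another. Over the first windows of 9418 tested genes, 5.05% held either motif and 2.27% held GTAAACA. From the list of other FOXO family and target genes described below, 32 matched a symbol. In their first windows 4 of the 32 held either motif, 1 of them GTAAACA. The stretches of BTG1 and TXNIP are shown because they hold the core, that of FOXO3 because its level followed BTG1 most closely over the libraries, and that of CCNG2 because it varied most between replicates. They end before the start site of both RefSeq and GENCODE 29, are written 5′ to 3′ on the strand of the gene, and capitals mark the matched core. They cover chr12:92145898-92146096 (minus strand), chr1:145996601-145996829 (minus strand), chr6:108559575-108559824 (plus strand) and chr4:77156957-77157150 (plus strand).
BTG1: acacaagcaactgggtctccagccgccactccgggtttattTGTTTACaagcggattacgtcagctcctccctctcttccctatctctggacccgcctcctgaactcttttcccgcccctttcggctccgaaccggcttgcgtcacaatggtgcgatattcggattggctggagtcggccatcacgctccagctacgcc
TXNIP: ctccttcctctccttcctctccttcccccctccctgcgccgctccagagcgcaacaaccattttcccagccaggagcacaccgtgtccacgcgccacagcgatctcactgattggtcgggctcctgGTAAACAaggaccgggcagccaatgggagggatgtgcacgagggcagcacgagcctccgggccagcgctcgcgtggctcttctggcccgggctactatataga
FOXO3: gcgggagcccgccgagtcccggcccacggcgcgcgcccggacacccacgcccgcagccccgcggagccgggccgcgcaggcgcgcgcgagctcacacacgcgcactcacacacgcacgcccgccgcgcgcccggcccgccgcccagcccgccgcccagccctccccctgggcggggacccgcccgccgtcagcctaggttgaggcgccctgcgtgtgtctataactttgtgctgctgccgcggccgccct
CCNG2: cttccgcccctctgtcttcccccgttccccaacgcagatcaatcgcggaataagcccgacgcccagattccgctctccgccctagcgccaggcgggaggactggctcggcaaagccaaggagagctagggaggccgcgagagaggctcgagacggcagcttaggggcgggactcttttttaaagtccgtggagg
The G and C content of these stretches was 57.8% in BTG1, 63.8% in TXNIP, 80.4% in FOXO3 and 63.9% in CCNG2. A match describes the letters only and is not evidence of binding in these cells.

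Expression is given in FPKM, fragments scaled to gene length and to library size. Values were compared by limma on the log2(FPKM + 1) scale over 12359 genes, those that reached 1 FPKM in 3 or more libraries, with Benjamini-Hochberg adjustment. This scale understates the change of genes with low FPKM. The libraries correlated with r of 0.996 to 0.997 within groups across genes, and read depth is unknown. Over all tested genes 39 (0.316%) were higher and 20 (0.162%) lower with TAX when the adjusted p had to be under 0.05, a split of 47 and 48 after quantile normalization and of 46 and 50 when each library was centred on its median. The epithelial markers EPCAM, CDH1, KRT8, KRT18 and KRT19 summed to 428 to 545 FPKM in control and 555 to 606 FPKM in TAX libraries. KLK3 and KLK2, secreted proteases of luminal prostate cells, were listed at 0 in all 6 libraries. Leukocyte markers summed to at most 0.419 FPKM and endothelial markers to at most 0.0368 FPKM. Of 4 fibroblast markers 3 were at 0 in all libraries, and their sum was 1.89 to 2.08 FPKM in control and 1.42 to 1.48 FPKM in TAX libraries. Mitochondrial transcripts took 11.2% of the summed FPKM in control replicate 2, against 15.8% and 14.2% in control replicates 1 and 3 and 11.2% to 12.0% in the TAX libraries, and the part of this share and of these markers in the results was not tested. In bulk RNA, fewer cells that express a gene and less of its RNA per cell cannot be told apart.

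In control cells the levels of the 10 genes ranged from 109 FPKM for CITED2 to 0.146 FPKM for TXNIP. CITED2 lay 8.02-fold above the next gene, BTG1. It was followed by FOXO3, CCNG2, SESN3, KLHL24, FOXO4, FOXO1, PIK3IP1 and TXNIP. The control ranges overlapped between the neighbours BTG1 and FOXO3, FOXO3 and CCNG2, CCNG2 and SESN3, SESN3 and KLHL24, and FOXO1 and PIK3IP1. Within single libraries BTG1 still exceeded FOXO3 in 6 of 6, while SESN3 exceeded KLHL24 in 4 of 6. TXNIP and PIK3IP1 lay below the filter on low values, 8 of the 10 genes passed it, and the 2 genes below it were tested in a second fit over 12361 genes.

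**Figure D1:**
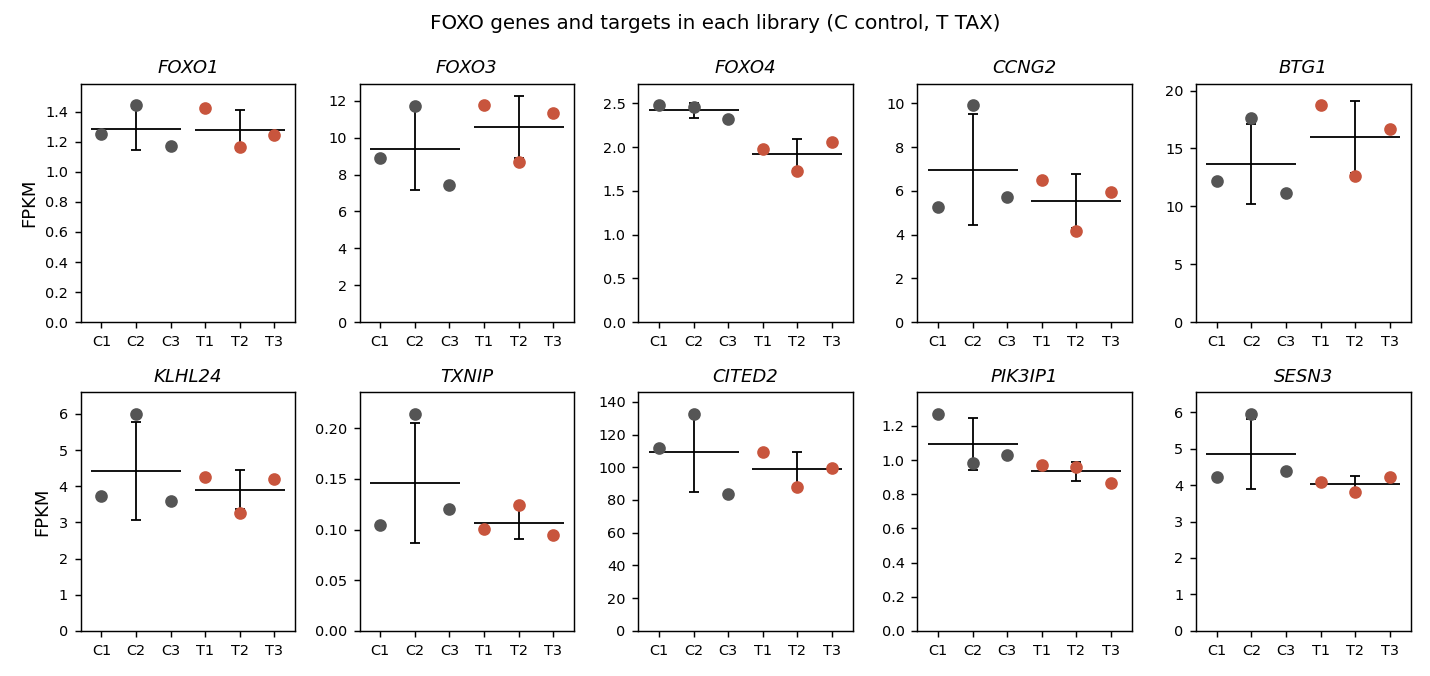
FPKM (vertical axes, from 0) of the 10 genes in control replicates C1 to C3 (grey) and TAX replicates T1 to T3 (red), 1 point per library, with the group mean as a line and 1 SD as a bar. Control replicate 2 is the highest library for 6 of the 10 genes, and FOXO4, PIK3IP1 and SESN3 are the 3 genes whose TAX libraries all lie below all control libraries.

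Among the factors, FOXO3 was the most abundant FOXO mRNA. FOXO3, on chromosome 6 from 108559835 to 108684774 (GENCODE 29, GRCh38), was measured at 8.91, 11.7 and 7.45 FPKM in the control libraries, given in the order of their replicate numbers here and for every gene that follows. Its TAX libraries held 11.8, 8.67 and 11.3 FPKM. The groups overlapped, as control replicate 2 was as high as the upper TAX libraries and TAX replicate 2 lay below control replicate 1. Its log2 fold change was 0.17 (standard error 0.15, limma adjusted p = 0.711), with a 95% interval from -0.16 to 0.50. It was 0.33 without control replicate 2 (unadjusted p = 0.0304, adjusted p = 0.340, limma) and 0.03 without control replicate 3. FOXO3 stood 2.85-fold to 4.62-fold above FOXO3B, a near copy on another chromosome, in every library, and the tables do not say how shared reads were divided between these genes.

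FOXO1, on chromosome 13 from 40469953 to 40666597, was expressed at a low level. It had 1.25, 1.44 and 1.17 FPKM in the control and 1.42, 1.17 and 1.25 FPKM in the TAX libraries. Group means were 1.29 ± 0.141 and 1.28 ± 0.132 FPKM (SD, n = 3 each), and the log2 fold change of -0.01 had a 95% interval from -0.20 to 0.19. FOXO6, the remaining gene of the family, had 0.317 to 0.454 FPKM over the 6 libraries and was not tested.

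FOXO4, on chromosome X from 71096197 to 71103535, was the gene of the set with the smallest p. Its FPKM was 2.48, 2.46 and 2.33 in the control and 1.98, 1.73 and 2.06 in the TAX libraries. All 3 TAX values lay below all 3 control values, and the control libraries lay within 1.07-fold of each other. The ratio of the means was 0.795 and the log2 fold change -0.23 (standard error 0.081, unadjusted p = 0.0182, adjusted p = 0.393 from limma). An exact two-sided permutation test gave p = 0.1, which is the smallest p that 3 libraries against 3 allow. The difference exceeded the spread between replicates but did not pass adjustment over all genes. Of all tested genes, 10.1% had an unadjusted p under 0.05 (limma), and 17.9% did not overlap between groups, 3.34% with TAX lower. Over the 13 alternatives the log2 fold change of FOXO4 ran from -0.32 to -0.18. As its groups did not overlap, only the 2 scalings could have changed its sign. It was -0.25 after quantile normalization and -0.29 after centring. Without TAX replicate 2 its unadjusted p was 0.0811 (adjusted p = 0.691, limma).

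CCNG2 and BTG1 act against proliferation. CCNG2 encodes cyclin G2, an unconventional cyclin found in cells that leave the cycle, and lies on chromosome 4 from 77157151 to 77433388. Its FPKM was 5.28, 9.91 and 5.74 in the control and 6.50, 4.17 and 5.96 in the TAX libraries. Control replicate 2 stood 1.80-fold above the mean of the other controls, which overlapped with the TAX libraries. The log2 fold change was -0.26 (standard error 0.20, limma adjusted p = 0.673) with a 95% interval from -0.70 to 0.18, and it was -0.01 without control replicate 2 and -0.41 without control replicate 1.

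BTG1 binds the CCR4-NOT deadenylase and lies on chromosome 12 from 92140278 to 92145897. It had 12.2, 17.6 and 11.1 FPKM in the control and 18.7, 12.6 and 16.7 FPKM in the TAX libraries. Here the TAX mean was the higher, by 0.22 on the log2 scale (standard error 0.17, limma adjusted p = 0.670; 95% interval from -0.15 to 0.60). Without control replicate 2 all TAX values lay above the remaining controls and the difference was 0.41, with an unadjusted p of 0.0156 and an adjusted p of 0.301 (limma). It was 0.38 without TAX replicate 2 (unadjusted p = 0.0418, adjusted p = 0.629, limma) and 0.10 without control replicate 3. Its exons overlap those of an antisense gene and of LINC01619 in GENCODE 29. Exons of FOXO1, PIK3IP1 and SESN3 also overlap other genes there, and as no source says whether counting used strand, such reads cannot be assigned.

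KLHL24 and CITED2 regulate other proteins. KLHL24 encodes an adaptor of the CUL3 ubiquitin ligase and lies on chromosome 3 from 183635568 to 183684477. It had 3.72, 5.996 and 3.58 FPKM in the control and 4.25, 3.27 and 4.203 FPKM in the TAX libraries, so that control replicate 2 was again alone above all others. Its log2 fold change was -0.12 (95% interval from -0.47 to 0.22). It was 0.07 without that library and -0.23 without control replicate 3. CITED2 encodes a nuclear protein that competes with HIF1A for the coactivators CREBBP and EP300, and lies on chromosome 6 from 139371807 to 139374620. Its FPKM was 112, 133 and 83.8 in the control and 109, 88.1 and 99.4 in the TAX libraries. The TAX libraries lay inside the range of the controls. The log2 fold change was -0.13 (standard error 0.15, limma adjusted p = 0.788). It was 0.02 without control replicate 2 and -0.30 without control replicate 3 (unadjusted p = 0.0263, adjusted p = 0.368, limma).

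PIK3IP1, SESN3 and TXNIP restrain signaling and nutrient use. PIK3IP1 is a membrane protein that inhibits the catalytic subunit of PI3K, and its gene lies on chromosome 22 from 31281593 to 31292534. It had 1.27, 0.986 and 1.03 FPKM in the control and 0.973, 0.960 and 0.869 FPKM in the TAX libraries. The groups did not overlap, but the highest TAX library lay directly below the lowest control. The log2 fold change was -0.11 (standard error 0.085, limma adjusted p = 0.668; 95% interval from -0.30 to 0.07).

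SESN3 encodes a sestrin, which acts on the GATOR complexes to restrain mTORC1, and lies on chromosome 11 from 95165513 to 95232541. Its FPKM was 4.24, 5.95 and 4.38 in the control and 4.09, 3.81 and 4.21 in the TAX libraries. The TAX libraries were all lower, the highest of them just below control replicate 1. The log2 fold change was -0.21 (standard error 0.11, limma adjusted p = 0.552; 95% interval from -0.45 to 0.04), and without control replicate 2 it was -0.08. Without control replicate 1 it was -0.28 (unadjusted p = 0.0408, adjusted p = 0.449, limma).

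TXNIP, an arrestin-like protein that binds thioredoxin and limits glucose uptake, is often an abundant target in other cells but was near 0 here. Its gene lies on chromosome 1 from 145992435 to 145996600. It had 0.104, 0.214 and 0.120 FPKM in the control and 0.101, 0.124 and 0.0945 FPKM in the TAX libraries. At such levels the groups overlapped, and with depth unknown no interval from counting can be given. Without control replicate 2 the ratio of the means was 0.949, against 0.728 with it. The related ARRDC4 was also low, at a mean of 0.473 FPKM without and 0.546 FPKM with TAX, while ARRDC3 averaged 28.7 and 21.1 FPKM. The groups overlapped for both genes, and ARRDC3 was highest in control replicate 2 (limma adjusted p = 0.493).

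**Figure D2:**
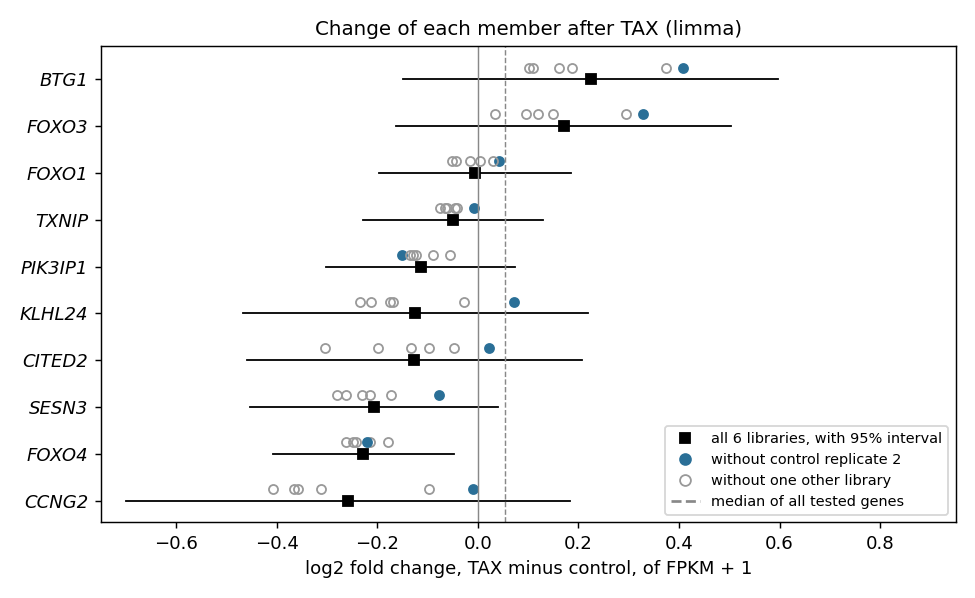
Log2 fold change of FPKM + 1, TAX minus control (horizontal axis), of the 10 genes with all 6 libraries (squares, bars show 95% intervals from limma) and in fits that each left out a library (circles, control replicate 2 in blue). The interval lies below 0 for FOXO4 and covers 0 for the other 9 genes, and the blue circle lies at the right-hand end of the row for each gene but FOXO4 and PIK3IP1.

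Counted together, 0 of the 10 genes had an adjusted p under 0.05, where the background over all tested genes was 0.477%. With an unadjusted p under 0.05 the count was 1 of 10, FOXO4, against a background of 10.1%, which is 7.73% for higher and 2.41% for lower genes. These shares depended on the scaling, being 6.03% higher and 5.79% lower (11.8% together) after quantile normalization and 5.52% higher and 6.59% lower (12.1% together) after centring. SESN3 was then also below 0.05, which made 2 of 10 under either scaling. The TAX libraries lay below all control libraries for 3 of the 10 genes, against 3.34% of all tested genes, and above them for 0 of the 10, against 14.6% (17.9% in either direction). PIK3IP1, 1 of these 3 genes, lay below the filter that defines the tested genes. Of the 8 members that passed it, 2 lay below all controls and 0 above. Overlap was counted on the deposited FPKM only, and not after either scaling. The log2 fold change was below 0 for 8 of the 10 genes, against 30.9% of all tested genes, and their median was -0.12, beside 0.05 over all tested genes. After quantile normalization 7 of the 10 genes and 48.4% of all tested genes were below 0, and after centring 8 of the 10 and 51.3%. This direction rested in part on control replicate 2. Without it 5 of the 10 genes were below 0, against 27.3% of all tested genes, their median was 0.01, beside 0.08 over all tested genes, and FOXO1, KLHL24 and CITED2 changed sign. BTG1 and FOXO3 then joined FOXO4 at an unadjusted p under 0.05, both with a higher TAX mean, and the smallest adjusted p was 0.301 (limma). This made 3 of 10, where the background without that library was 13.3%, or 11.2% for higher and 2.14% for lower genes.

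Differences between replicates were wide for most of these genes. The SD within groups on the log2(FPKM + 1) scale was 0.37 for CCNG2, above that of 98.6% of the tested genes. For BTG1, KLHL24, FOXO3 and CITED2 it was larger than in 97.6%, 96.6%, 96.2% and 96.1% of the tested genes, and for SESN3 than in 83.9%. FOXO1, FOXO4, PIK3IP1 and TXNIP, by contrast, stood at 29.1%, 14.4%, 23.7% and 7.78%. PIK3IP1 and TXNIP lay below the filter on low values, and the log2(FPKM + 1) scale narrows the spread at low FPKM. The median SD within groups over all tested genes was 0.11.

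These differences ran in parallel. Control replicate 2 was the highest of all libraries for 6 of the 10 genes, against 19.4% of all tested genes. Control replicate 2 was the highest control for 8 of the 10 genes, against 44.6% of all tested genes, and TAX replicate 2 was the lowest TAX library for 8 of the 10, against 34.7%. Both held for 7 of the 10 genes, against 22.2%. Control replicate 2 and TAX replicate 2 were also the libraries where the mean of the members that passed the filter was highest and lowest. The counts among the 10 genes are therefore a description and not a test. The margin by which control replicate 2 exceeded the mean of the other controls was reached by 0.453% of the tested genes for CCNG2, 0.890% for KLHL24, 1.09% for BTG1, 1.70% for FOXO3 and 2.97% for SESN3. This share was not computed for the remaining members. Their FPKM ratio of control replicate 2 to that mean was 1.91 for TXNIP, 1.35 for CITED2, 1.19 for FOXO1, 1.02 for FOXO4 and 0.856 for PIK3IP1. Over the 8 genes that passed the filter, the mean deviation from each gene's own average was 0.32 in control replicate 2 and -0.22 in TAX replicate 2, while it lay between -0.15 and 0.09 in the other 4 libraries.

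**Figure D3:**
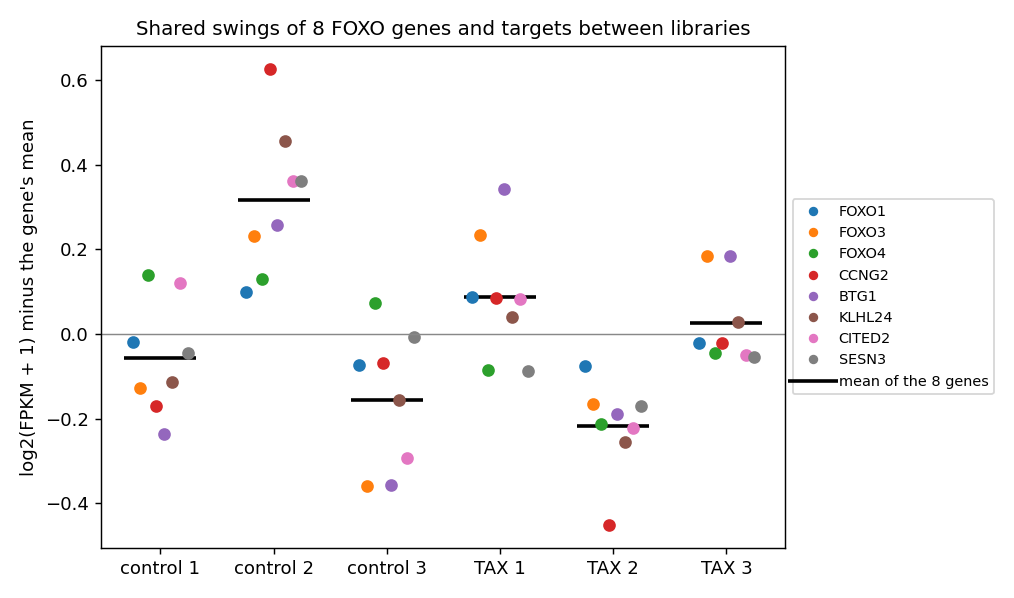
Deviation of log2(FPKM + 1) from the gene's own mean (vertical axis) in each of the 6 libraries for the 8 genes that passed the filter, with their mean as a black bar. The mean stands at 0.32 in control replicate 2 and at -0.22 in TAX replicate 2, and FOXO4 (green) is above 0 in all controls and below 0 in all TAX libraries.

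As a description over 6 libraries that all these genes share, Pearson's r of log2(FPKM + 1) between pairs of the 8 genes ran from -0.11 to 0.98. The highest values were 0.98 for BTG1 with FOXO3 and 0.97 for KLHL24 with CCNG2, whereas FOXO4 did not exceed 0.67 with any of them. Among 8397 other genes with a mean of at least 5 FPKM, those most like the mean of the 8 genes were NFIL3, MAFK, MXI1, AMIGO2 and MIER3, with r from 0.990 to 0.995 over the 6 libraries. NFIL3, a leucine zipper repressor, had 36.3, 78.3 and 27.7 FPKM in the control and 48.6, 24.5 and 46.0 FPKM in the TAX libraries. MXI1, an antagonist of MYC and itself a FOXO target, had 18.9, 27.3 and 16.8 FPKM in the control and 22.9, 15.3 and 20.2 FPKM in the TAX libraries.

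The same library pattern was counted in a hand-written list of other FOXO targets. Of 31 tested genes in that list, 20 (64.5%) had control replicate 2 as the highest control and TAX replicate 2 as the lowest TAX library, beside the 22.2% of all tested genes. CDKN1B, MXI1, IRS2 and RICTOR, 4 of the 31, reached r of at least 0.9 with the mean of the 8 genes, or 12.9%, against 2.43% of all tested genes. IRS2, the adaptor through which FOXO proteins feed back on the insulin receptor, had 10.3, 19.7 and 8.06 FPKM in the control and 10.9, 6.53 and 10.1 FPKM in the TAX libraries. Its control replicate 2 was the highest library and its TAX replicate 2 the lowest.

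Between the groups this list held genes on both sides of 0. Of the 31 genes 0 passed at an adjusted p under 0.05 (limma), against 0.477% of all tested genes. At an unadjusted p under 0.05 5 were higher and 3 lower, against 7.73% and 2.41% of all tested genes. The median log2 fold change was 0.04, beside 0.05 over all tested genes. The list mixes genes that FOXO proteins activate with genes that they repress. Its median and its counts by direction are therefore no measure of FOXO activity. CCND1, the gene of cyclin D1, which FOXO proteins repress, had 36.0, 34.2 and 34.5 FPKM in the control and 44.8, 47.1 and 45.3 FPKM in the TAX libraries. All TAX libraries were higher, by 0.38 on the log2 scale (standard error 0.075, limma adjusted p = 0.0731). FBXO32, a ubiquitin ligase subunit of muscle atrophy, averaged 1.84 ± 0.388 FPKM without and 2.61 ± 0.344 FPKM with TAX (SD, n = 3 each), and its groups overlapped. GABARAPL1, an autophagy protein, had 21.4 ± 1.25 and 17.5 ± 0.830 FPKM, and PDK4, a kinase that blocks pyruvate dehydrogenase, had means of 1.65 ± 0.234 and 1.15 ± 0.0705 (SD, n = 3 each). Both lay below all controls in the TAX libraries, with limma adjusted p of 0.257 and 0.269. BCL6, GADD45A, CDKN1A and KLF6 made up the rest of the 8 genes, BCL6 being lower and the others higher. FASLG, TRIM63, G6PC, PCK1, PPARGC1A and IGFBP1, targets known mainly from liver, muscle or immune cells, were listed at 0 in all 6 libraries.

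Upstream of FOXO, 16 genes from PI3K to AKT were tested, and 0 passed at an adjusted p under 0.05 (limma). At an unadjusted p under 0.05 1 of the 16 was higher and 1 lower, against 7.73% and 2.41% of all tested genes. PIK3R3, a regulatory subunit of PI3K, had 4.01, 4.09 and 4.75 FPKM in the control and 3.22, 3.76 and 3.44 FPKM in the TAX libraries, without overlap. Its log2 fold change was -0.24, with a limma adjusted p of 0.411. SGK1, a kinase that shares FOXO sites with AKT, had 3.34 ± 1.22 and 2.40 ± 0.194 FPKM, and PIK3R2, a regulatory subunit, had means of 6.39 ± 2.26 and 7.41 ± 0.614 (SD, n = 3 each). Both differences were smaller than the SD of the controls.

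Of 21 tested genes whose proteins hold, modify or degrade FOXO proteins, 0 passed at an adjusted p under 0.05 (limma). At an unadjusted p under 0.05 1 of the 21 was higher, against 7.73% of all tested genes. That gene was SIRT2, a deacetylase, with 5.30, 5.81 and 4.53 FPKM in the control and 6.32, 6.49 and 6.20 FPKM in the TAX libraries (limma adjusted p = 0.411). YWHAH, of the adaptor family that retains FOXO in the cytoplasm, averaged 77.8 ± 2.62 FPKM without and 87.6 ± 5.21 FPKM with TAX (SD, n = 3 each). DYRK1A, a kinase of FOXO1, had means of 8.15 ± 1.30 and 6.74 ± 1.20 FPKM, and SKP2, a ubiquitin ligase subunit, had means of 15.2 ± 0.882 and 14.0 ± 1.47 (SD, n = 3 each), both with overlap.

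Among 33 tested relatives and partners of the 10 genes, 1 passed at an adjusted p under 0.05 (limma), against 0.477% of all tested genes. KLHL21, a further adaptor of the CUL3 ligase that acts in mitosis, rose from 5.22, 5.97 and 5.07 FPKM in the control libraries to 8.30, 8.11 and 8.33 FPKM in the TAX libraries. The ratio of the means was 1.52 and the log2 fold change 0.53 (standard error 0.082, limma adjusted p = 0.0275). This call held in 6 of the 13 alternatives, with adjusted p from 0.0203 to 0.123 over all of them. It was lost without control replicate 1 (0.0756), without control replicate 3 (0.0549), and without TAX replicate 1, 2 or 3 (0.0917, 0.102 and 0.106), all adjusted p from limma. At an unadjusted p under 0.05 a total of 3 genes were higher and 2 lower, against 7.73% and 2.41% of all tested genes. The lower ones belong to the family of BTG1, namely TOB1 with means of 84.0 ± 9.91 FPKM without and 66.4 ± 5.73 FPKM with TAX and BTG2 with 4.31 ± 0.484 and 3.45 ± 0.260 (SD, n = 3 each). Neither overlapped between groups, and their limma adjusted p was 0.321 and 0.402. MIOS, a GATOR subunit of the complex on which sestrins act, averaged 9.53 ± 0.471 FPKM without and 11.4 ± 0.535 FPKM with TAX (SD, n = 3 each; limma adjusted p = 0.350). PRMT1, an arginine methyltransferase that binds BTG1, averaged 53.5 and 62.4 FPKM.

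**Figure D4:**
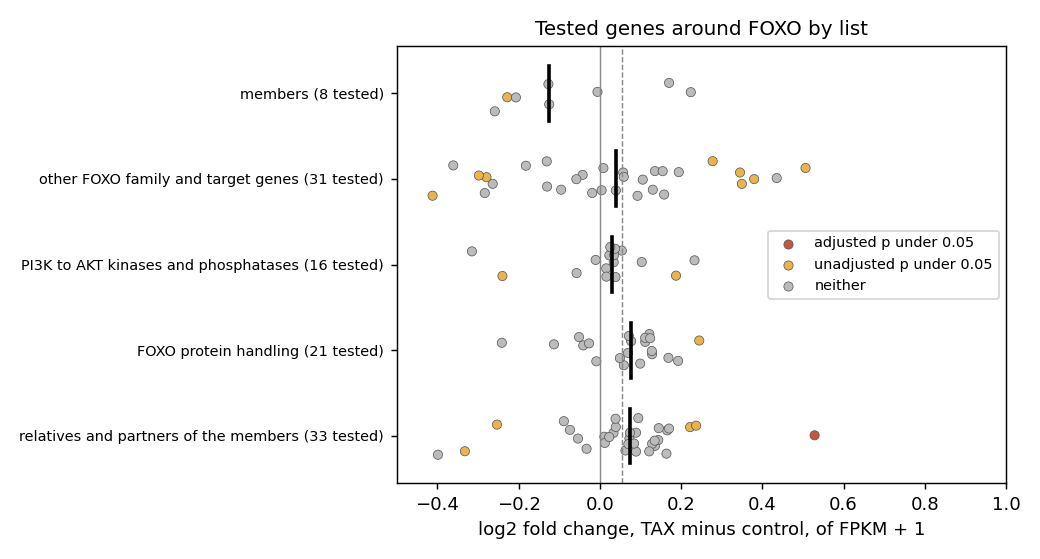
Log2 fold change of FPKM + 1, TAX minus control (horizontal axis), of the tested genes in each list, 1 point per gene, with the list's median as a black bar and the median of all tested genes, 0.05, as a dashed line. KLHL21, at 0.53 in the lowest row, is the 1 gene at an adjusted p under 0.05, and the medians of the 4 hand-written lists lie between 0.03 and 0.08, while that of the 8 tested FOXO genes and targets lies at -0.13.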

How the data were processed

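The tables, 1 per RNA library of DU145 cells, covered 3 control and 3 TAX-treated samples grouped by their titles. The submitters' processing notes name HISAT2 2.2.0, StringTie 2.1.2 and GRCh38, without their roles. The authors deposited 1 value per gene, taken here as FPKM because the values are decimals with sums of 322483 to 363724 per library and because 3130 identifiers carry the StringTie prefix MSTRG. Annotation and filters are not given in the sources used here. No counts were used, no whole-read steps were found among low values, and depth is unknown, so no interval from counting is given.

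From the deposited FPKM, log2(FPKM + 1) was fitted with limma 3.58.1 in R 4.3.3 (eBayes with trend) without a covariate, with Benjamini-Hochberg adjustment. The fit was checked on simulated data. Permutation tests of single genes were exact and two-sided.

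The 10 genes and the gene lists were chosen with earlier results of these data known, and all lists were written by hand. Named were the 10 genes and, per other list, every gene with an adjusted p under 0.05 and the 2 genes with the smallest p in each direction, plus the 5 genes most like the 10 over the libraries. PRMT1, FOXO3B, FOXO6, IRS2, CDKN1B, RICTOR, BCL6, GADD45A, CDKN1A, KLF6, ARRDC3, ARRDC4, the genes at 0 and the markers are outside this rule, most of them chosen after their values were seen. Some genes that the rule or the lists hold are not reported here. Alternatives were another pseudocount (0.1), 2 filters, 2 scalings, no trend, a replicate block and leaving out each library. Gene positions are from GENCODE 29, promoters from RefSeq.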

Additional observations from a re-analysis of the deposited data

How the results depend on the processing

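None of the 10 FOXO genes and targets reached an adjusted p under 0.05 in any of the 13 alternatives, and the smallest adjusted p was 0.169 (FOXO4, each library centred on its median). The count of these genes at an unadjusted p under 0.05, 1 in the comparison reported, was 2 after quantile normalization and 2 after centring, SESN3 being the gene added, while the share of all tested genes went from 10.1% to 11.8% and 12.1%. With each library left out it ranged from 1 to 3 (6.29% to 13.3% of all tested genes), SESN3 joining without control replicate 1 and CITED2 without control replicate 3, and without TAX replicate 2 the gene was BTG1 and not FOXO4. The median of the 10 genes relative to all tested genes was -0.17, and from -0.21 to -0.07 (without control replicate 2) with a library left out. The 39 higher and 20 lower genes over the whole table became 25 and 12 with a filter of 0.1 FPKM, and 0 and 1 with no filter on low values, over 20280 genes, of which 1244 and 610 had an unadjusted p under 0.05 (limma). Lower genes numbered 48 after quantile normalization and 50 after centring. With a library left out, 8 to 31 genes were higher (8 without TAX replicate 2) and 7 to 18 lower (7 without control replicate 1). TXNIP was higher by 0.03 after quantile normalization, and at -0.05 in the comparison reported. With the replicate block 13 genes were higher and 13 lower, and the call of none of the 10 genes changed. KLHL21 had an adjusted p of 0.0671 with the block and of 0.123 with no filter (limma). Deviations of same-numbered libraries from their group means correlated with r of -0.12, -0.33 and -0.17 across genes. For libraries with different numbers r ran from -0.17 to 0.29. As deviations cancel within each group, these values cannot show whether same-numbered samples were handled together. The cause of the changes between alternatives was not tested. Depth is unknown, which limits TXNIP and PIK3IP1 most.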
